A study of Mus musculus with 9 samples.

Results

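The imprinted genes are a set of 36 mouse genes of which, in at least some tissues, 1 parental copy is used and the other is silent. They were picked by symbol from the 25965 genes of a table of RNA levels, and 32 of the 36 were listed. Rian, Mirg, Peg13 and Kcnq1ot1 were not analysed here. The levels came from polyA RNA of E14 mouse embryonic stem cells (ESCs), a line of 129/Ola origin grown without feeder cells in serum and LIF. By the study's account all groups carried 2 fluorescent reporters of the 2-cell-like state, MERVL::tdTomato and Zscan4c::eGFP. Cells received control siRNA, Dppa2 siRNA or Dppa4 siRNA at the start and again at 48 h, and were harvested at 96 h, with 3 libraries (A, B and C) in each of the 3 groups. Dppa2 and Dppa4 are small SAP-domain proteins of ESCs and early embryos, and the comparison asked which RNAs depend on each of them.

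Genomic imprinting is set in the germ line. At most imprinted loci, DNA methylation laid down in the egg or the sperm at an imprinting control region is kept through the reprogramming that follows fertilisation and sets which parental copy of nearby genes is transcribed. A few genes, Sfmbt2, Gab1 and Slc38a4 among them, instead inherit maternal H3K27me3, a repressive histone mark. Many imprinted genes lie in domains, where coding genes often share 1 control region with a long noncoding RNA made from the other copy. Many act in fetal and placental growth, with paternally expressed genes such as Igf2 promoting it and maternally expressed genes such as Igf2r, Grb10 and Cdkn1c restraining it.

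By the copy known to be used, 11 of the listed members are maternally expressed, 20 are paternally expressed, and Gnas is expressed from both copies in most tissues. Reads were counted per gene and not per parental copy, so no value below says which copy an RNA came from. In cells taken in bulk, fewer cells expressing a gene and less RNA per cell cannot be told apart.

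Promoter sequence is shown for 6 of the 7 members whose RNA differed from control, because CpG dinucleotides are the sites at which imprinted promoters are methylated. Each stretch is the 250 bases before the RefSeq start (build GRCm38.p6), written 5′ to 3′ on the gene's own strand with every CpG in capitals. The median over 32851 mouse promoters was 6 CpGs in such a window (quartiles 2 and 16). Dlk1 (chr12:109452573-109452822, + strand) has 8, Ndn (chr7:62348027-62348276, + strand) has 5, Igf2 (chr7:142666817-142667066, − strand) has 1 and Slc22a18 (chr7:143473539-143473788, + strand) has 0. Grb10 (chr11:12037421-12037670, − strand) has 40 and Igf2r (chr17:12769707-12769956, − strand) has 27. Igf2 has 4 promoter entries and Grb10 has 2, and the RefSeq start behind the Grb10 window lies 1263 bases inside the gene as listed. CpG-dense and CpG-free windows thus both occur among the genes that differed. The letters TGCCGC, read on either strand, were in 8.68% of all promoters and in none of these windows.
Dlk1: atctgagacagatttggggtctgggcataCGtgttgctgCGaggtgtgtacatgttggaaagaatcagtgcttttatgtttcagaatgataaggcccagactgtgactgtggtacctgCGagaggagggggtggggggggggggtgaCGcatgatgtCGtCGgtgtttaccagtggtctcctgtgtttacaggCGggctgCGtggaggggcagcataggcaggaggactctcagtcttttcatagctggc
Ndn: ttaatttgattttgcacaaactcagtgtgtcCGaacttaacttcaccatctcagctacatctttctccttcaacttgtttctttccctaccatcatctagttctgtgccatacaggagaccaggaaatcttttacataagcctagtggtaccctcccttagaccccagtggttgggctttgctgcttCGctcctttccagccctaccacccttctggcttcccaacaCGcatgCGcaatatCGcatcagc
Igf2: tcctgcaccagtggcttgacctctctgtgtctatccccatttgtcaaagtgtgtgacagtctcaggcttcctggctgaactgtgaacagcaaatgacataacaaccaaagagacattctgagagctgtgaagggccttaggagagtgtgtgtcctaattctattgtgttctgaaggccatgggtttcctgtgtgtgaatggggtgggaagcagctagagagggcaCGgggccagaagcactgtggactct
Slc22a18: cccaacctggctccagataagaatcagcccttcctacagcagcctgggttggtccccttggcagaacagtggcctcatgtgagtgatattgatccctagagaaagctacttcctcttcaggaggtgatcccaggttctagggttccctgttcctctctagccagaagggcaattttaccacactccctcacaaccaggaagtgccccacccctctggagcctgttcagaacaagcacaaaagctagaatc
Grb10: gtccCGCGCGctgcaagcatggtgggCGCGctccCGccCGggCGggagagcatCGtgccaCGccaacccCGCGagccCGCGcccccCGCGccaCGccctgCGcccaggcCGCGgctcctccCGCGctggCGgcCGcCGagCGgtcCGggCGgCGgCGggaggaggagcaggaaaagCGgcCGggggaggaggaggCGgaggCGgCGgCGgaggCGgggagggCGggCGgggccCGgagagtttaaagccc
Igf2r: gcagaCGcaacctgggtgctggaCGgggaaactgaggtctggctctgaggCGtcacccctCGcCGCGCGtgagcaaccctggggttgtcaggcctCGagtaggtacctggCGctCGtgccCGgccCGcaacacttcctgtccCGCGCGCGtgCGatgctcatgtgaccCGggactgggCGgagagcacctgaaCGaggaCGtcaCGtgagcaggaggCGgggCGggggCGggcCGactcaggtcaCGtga

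The levels are the authors' log2 values, matched between libraries by their distributions. Estimated depth was 20.7 to 39.7 M reads in control, 16.8 to 26.7 in Dppa2 and 21.2 to 30.4 in Dppa4 libraries. Dppa2 RNA fell by 3.49 on the log2 scale with its own siRNA and Dppa4 RNA fell by 0.93 with its own. By these values the knockdown of Dppa4 mRNA was therefore the shallower of the pair. It was the shallower in the study's qRT-PCR too, which gave a larger fall of Dppa4 mRNA than seen here. In the study's blots each siRNA lowered the protein of its own target, but protein did not always follow mRNA. There Dppa4 siRNA also lowered Dppa2 protein strongly while Dppa2 mRNA held, and Dppa2 siRNA lowered Dppa4 protein to a lesser degree. Neither siRNA thus acted on its own target protein only. Libraries also differed in how long transcripts fared: the 1429 genes with transcripts of at least 6668 bases lay 0.38 above their gene means in control A and 0.18 below them in control C (medians, log2). In Dppa2 and Dppa4 libraries the same median ran from −0.15 to 0.20, and values corrected for transcript length and GC content are given wherever they alter a call. ESC identity was checked on 10 naive pluripotency markers, which were all expressed, summed to 2648 to 3465 in control libraries, 3059 to 3439 in the Dppa2 group, and 3017 to 3248 in the Dppa4 group on the linear scale, and gave no call in either comparison.

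In control ESCs the members spanned a wide range. Per kilobase of the longest annotated transcript, the mean control level was highest for Phlda2, a maternally expressed gene that limits placental growth (6.50, log2), followed by Snrpn (6.44) and Cd81 (6.09). Phlda2 and Snrpn differed by less than the SD over control libraries (0.26 and 0.13, n = 3). Peg10, Gab1 and Mest formed a close group at 5.38, 5.35 and 5.27, which the SDs of 0.46, 0.16 and 0.26 do not separate. Dlk1 (0.38), Magel2 (0.19) and Slc22a18 (−0.24) were low, and Usp29 (−3.73) and Zim1 (−4.89) were close to silent, with 6 to 51 and 3 to 20 reads per control library. Airn, the paternally expressed antisense RNA that silences Igf2r, had 1 read in all 9 libraries together. Its log2 values were at most −3.84, short of the filter for testing (above −2 in at least 3 libraries). With 1 read it was taken as not detected in these polyA libraries, and whether the RNA was absent or missed was not tested.

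**Figure D1:**
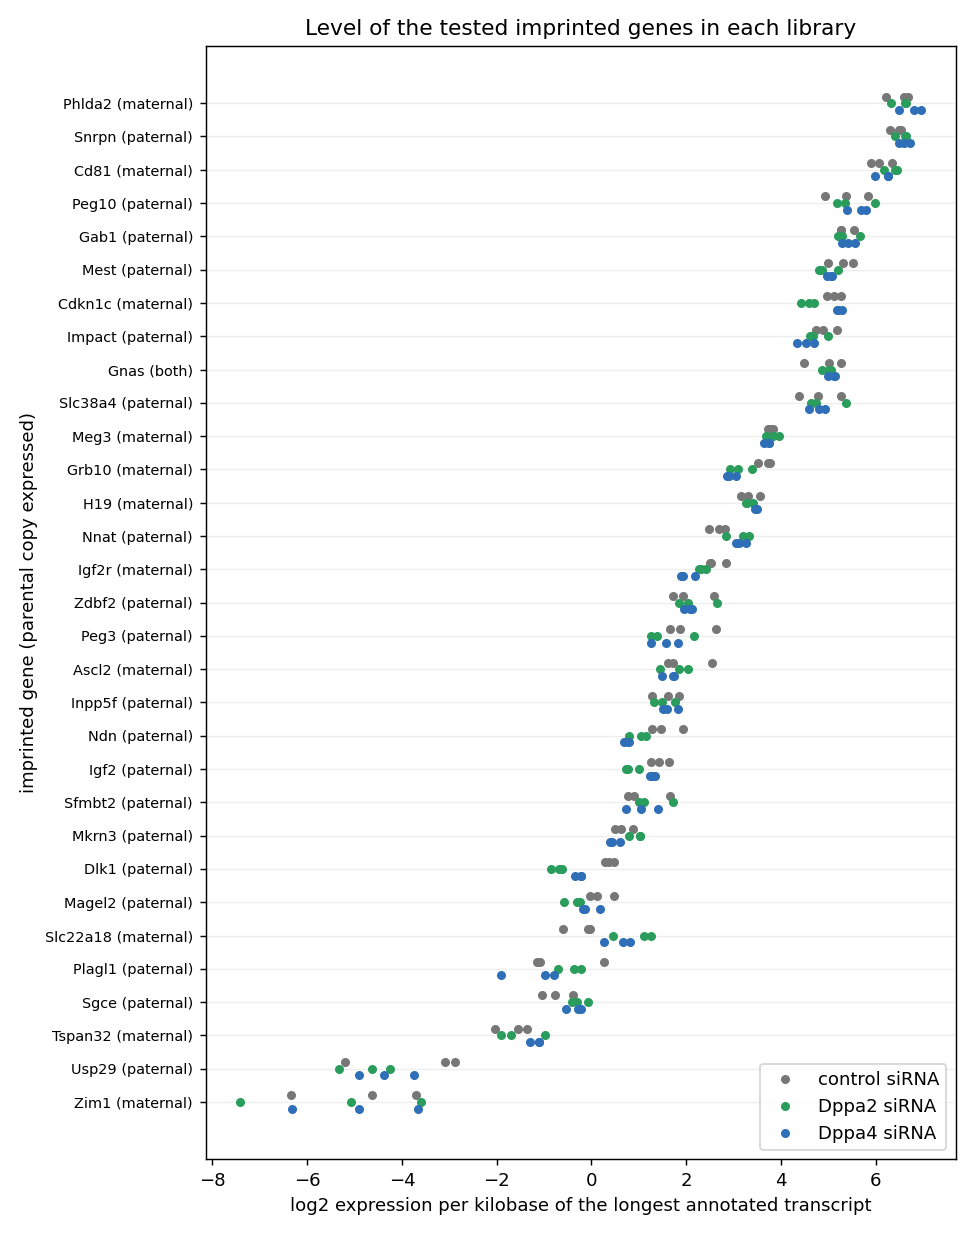
Level of each of the 31 tested imprinted genes in each library (x axis, log2 expression per kilobase of the longest annotated transcript), ordered by the control mean, with control siRNA in grey, Dppa2 siRNA in green and Dppa4 siRNA in blue. Phlda2, Snrpn and Cd81 sit at the top and Zim1 and Usp29 at the bottom; Zim1 has the widest scatter in every group.

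Most imprinted genes did not pass the test in either knockdown, and those that did were mainly lower. Of 31 members tested, 4 passed with Dppa2 siRNA: Dlk1, Igf2 and Cdkn1c fell and Slc22a18 rose. With Dppa4 siRNA 4 passed as well, where Dlk1, Grb10, Igf2r and Ndn all fell. The test was limma across all genes with log2 values above −2 in at least 3 libraries, two-sided, with Benjamini-Hochberg adjustment over 14601 genes and a threshold of 0.05. The members' 12.9% in each comparison stands beside 3.44% of all tested genes with Dppa2 siRNA and 3.44% with Dppa4 siRNA. The members were chosen with earlier results of these data known, so the higher share is not evidence about imprinted genes in general. In the lower direction, 3 members stand beside a background of 2.27% with Dppa2 siRNA and 4 beside 2.34% with Dppa4 siRNA. In the higher direction, 1 member stands beside 1.16%, and 0 beside 1.1%. The median difference over the members was 0.03 in the first comparison and −0.05 in the second, against 0.02 and 0.03 for all tested genes, which places the middle of the group close to that of all genes.

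By groups of libraries that do not overlap, 7 members were lower and 2 higher with Dppa2 siRNA, where 8.2% and 9.57% of all tested genes were. With Dppa4 siRNA 5 were lower and 3 higher, where 10.2% and 13.7% of all tested genes were. The shares in the higher direction are below those of all genes. Requiring also that a gene differ from genes of like level (the intensity difference filter) left Dlk1, Igf2 and Cdkn1c with Dppa2 siRNA (background 1.91%) and Ndn, Grb10 and Igf2r with Dppa4 siRNA (background 1.95%). Of the 11 maternally expressed members, 2 passed in each comparison, and of the 19 paternally expressed members tested, 2 passed in each. Apart from Dlk1 with Dppa2 siRNA, each call was lost when some single libraries were left out, holding in at most 4 of 9 such fits. Both knockdowns were set against the same control libraries, so the 2 sets of values are not independent.

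**Figure D2:**
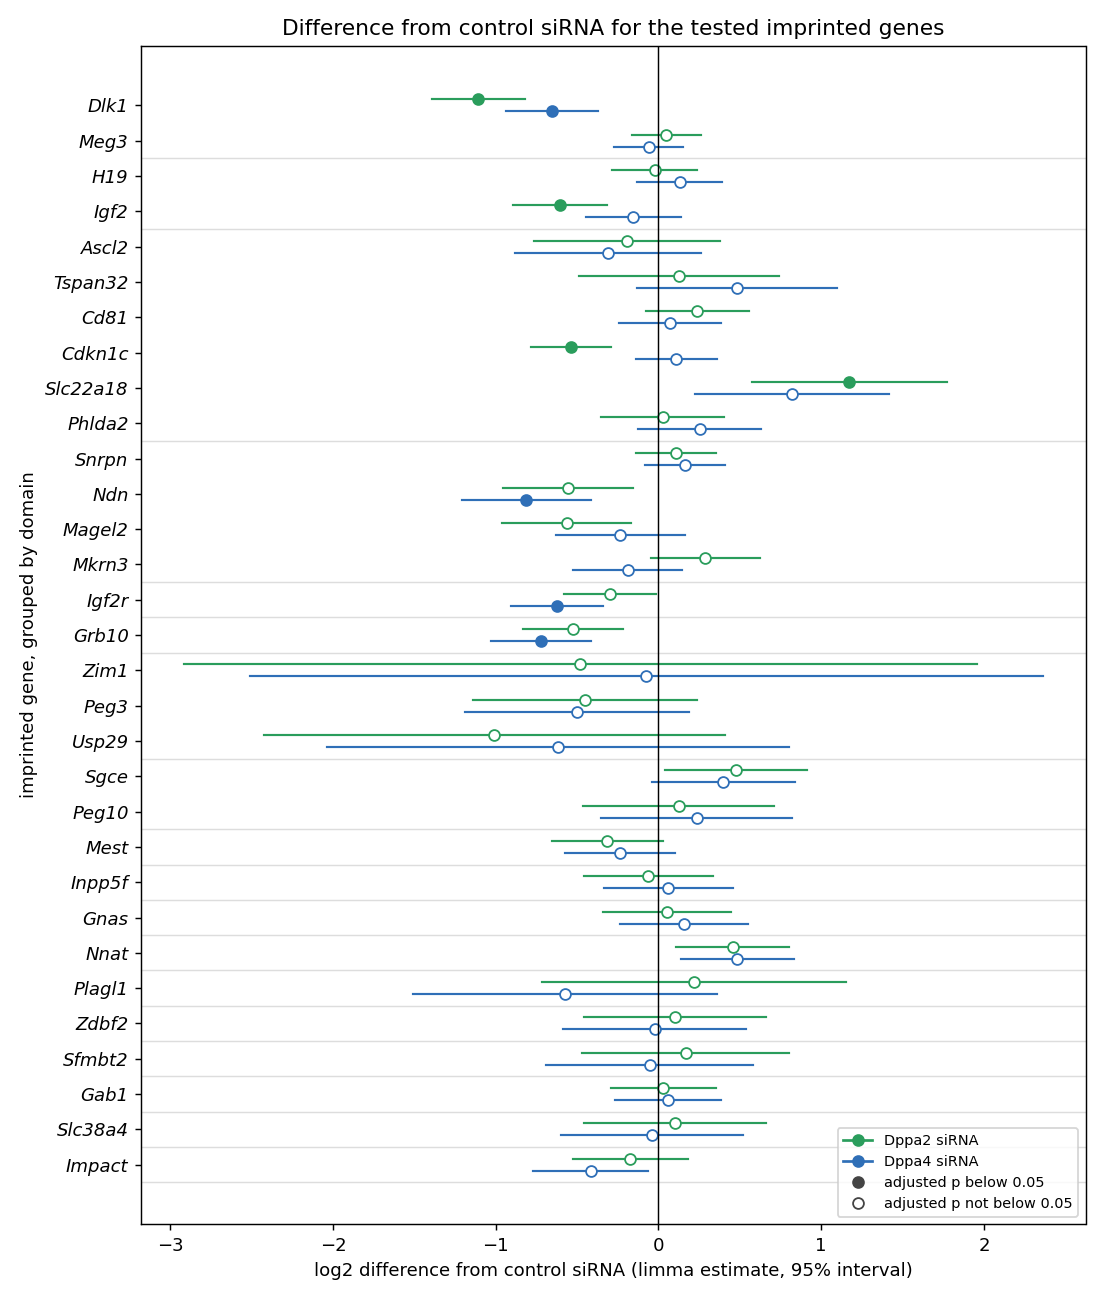
Log2 difference from control siRNA (x axis, limma estimate with its 95% interval) for the 31 tested imprinted genes grouped by domain, with Dppa2 siRNA in green and Dppa4 siRNA in blue and filled points for adjusted p below 0.05. Dlk1 lies left of 0 in both comparisons at −1.11 and −0.65, and Zim1 and Usp29 carry the widest intervals.

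Dlk1 (chr12:109452823-109463336) had the smallest adjusted p of the members with Dppa2 siRNA. It encodes a Notch-like membrane ligand made from the paternal copy, which restrains adipocyte differentiation and promotes growth. Its log2 level was 2.51, 2.70 and 2.59 in control libraries A, B and C, 1.37, 1.59 and 1.53 with Dppa2 siRNA, and 1.87, 1.99 and 2.0 with Dppa4 siRNA. Every knockdown library was below every control library, and the Dppa2 libraries were also below all Dppa4 libraries. Dlk1 RNA was 46.6% ± 3.71 of the control level with Dppa2 siRNA and 63.7% ± 3.13 with Dppa4 siRNA (SD, n = 3). The differences were −1.11 (95% interval −1.39 to −0.82; limma adjusted p = 0.00161) and −0.65 (−0.94 to −0.37; adjusted p = 0.0246). Behind these values stood 153 to 368 reads in each control library, 60 to 79 in each Dppa2 library and 102 to 142 in each Dppa4 library. With Dppa2 siRNA, Dlk1 passed under all 18 alternatives tried, with Dppa4 siRNA under 10 of 18.

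Meg3 (chr12:109541001-109571726), the maternally expressed noncoding RNA of the same domain, starts 77.7 kb from the end of Dlk1. It was among the most even members, at 7.69, 7.59 and 7.64 in control libraries, 7.82, 7.54 and 7.68 with Dppa2 siRNA, and 7.61, 7.60 and 7.51 with Dppa4 siRNA. The groups overlapped in both comparisons. Its difference was 0.05 (−0.16 to 0.26; limma adjusted p = 0.931) with Dppa2 siRNA and −0.06 (−0.27 to 0.15; adjusted p = 0.828) with Dppa4 siRNA, and the second turns positive after length and GC correction. Within each library, Meg3 exceeded Dlk1 by 4.88 to 5.18 in control, 5.95 to 6.46 in the Dppa2 group, and 5.51 to 5.74 in the Dppa4 group (log2, not per length). The gap between the 2 neighbours was thus wider in every knockdown library than in any control library. With Meg3 even, this gap restates the fall of Dlk1 and is no separate result. The pair was chosen after its values were seen.

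Igf2 (chr7:142650766-142666816), the paternally expressed insulin-like growth factor, fell with Dppa2 siRNA. Control libraries A, B and C were at 3.50, 3.66 and 3.87, Dppa2 libraries at 3.01, 3.25 and 2.96, and Dppa4 libraries at 3.48, 3.52 and 3.58. The Dppa2 libraries lay below all others, and the Dppa4 libraries overlapped control. The difference was −0.60 (−0.90 to −0.31; limma adjusted p = 0.0388) with Dppa2 siRNA, a level 66.0% ± 7.06 of control (SD, n = 3), and −0.16 (−0.45 to 0.14; adjusted p = 0.616) with Dppa4 siRNA. H19, the maternally expressed noncoding RNA 72.6 kb away that shares enhancers with Igf2, was at 4.34, 4.74 and 4.50 in control libraries, 4.44, 4.59 and 4.48 with Dppa2 siRNA, and 4.68, 4.63 and 4.66 with Dppa4 siRNA. Its differences of −0.02 (−0.28 to 0.24; adjusted p = 0.981) and 0.13 (−0.13 to 0.39; adjusted p = 0.650) did not pass, and the H19 groups overlapped. H19 exceeded Igf2 by 0.63 to 1.08 in control libraries, 1.34 to 1.52 in the Dppa2 group, and 1.08 to 1.21 in the Dppa4 group (log2).

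**Figure D3:**
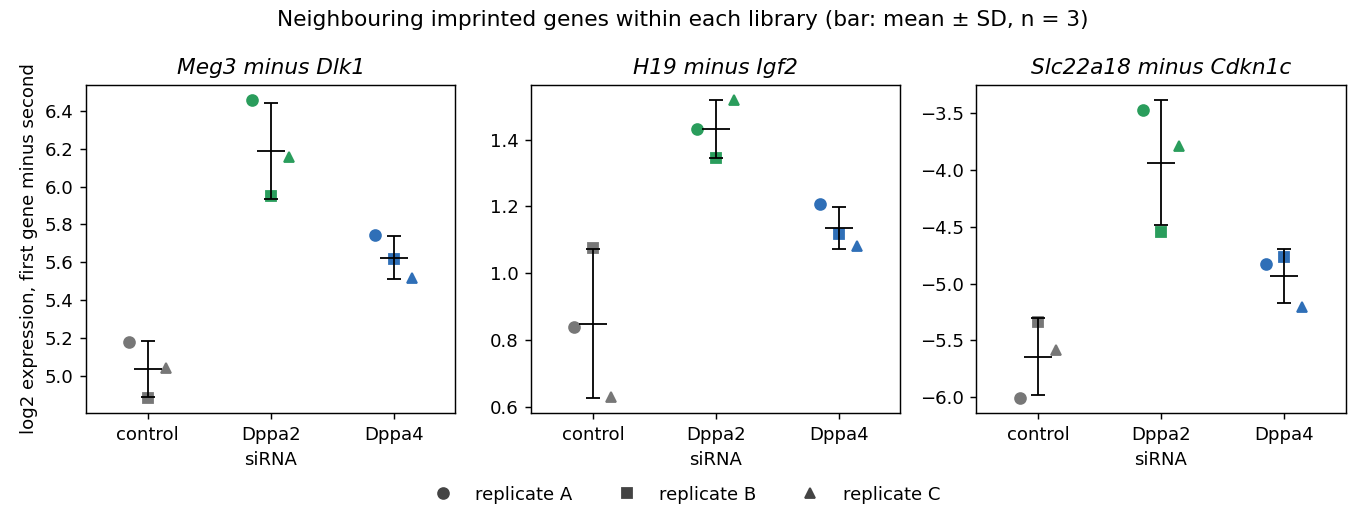
Difference in log2 expression between 2 neighbouring imprinted genes within each library (y axis; points are libraries, bars the mean ± SD, n = 3) for Meg3 minus Dlk1, H19 minus Igf2 and Slc22a18 minus Cdkn1c. In each panel the Dppa2 libraries sit above the control libraries, as for Meg3 minus Dlk1 at 5.95 to 6.46 against 4.88 to 5.18, and the pairs were chosen after their values were seen.

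The Kcnq1 domain on distal chromosome 7 held 6 listed members, all maternally expressed, of which 1 fell and 1 rose with Dppa2 siRNA. Cdkn1c (chr7:143458350-143461050) encodes p57, a cyclin-dependent kinase inhibitor. It was at 6.04, 5.89 and 6.18 in control libraries, 5.35, 5.63 and 5.52 with Dppa2 siRNA, and 6.12, 6.21 and 6.11 with Dppa4 siRNA. Only the Dppa2 libraries stood apart from control. The difference was −0.54 (−0.78 to −0.29; limma adjusted p = 0.0330), or 69.1% ± 6.50 of control (SD, n = 3), and after length and GC correction the adjusted p was 0.0810. With Dppa4 siRNA it was 0.11 (−0.14 to 0.36; adjusted p = 0.693).

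Slc22a18 (chr7:143473721-143499334), an organic cation transporter gene 12.7 kb beyond Cdkn1c, was the member that rose. Control libraries were at 0.03, 0.56 and 0.60, Dppa2 libraries at 1.89, 1.08 and 1.73, and Dppa4 libraries at 1.30, 1.45 and 0.90. All knockdown libraries were above all control libraries. The differences were 1.17 (0.57 to 1.77; limma adjusted p = 0.0484) and 0.82 (0.22 to 1.42; adjusted p = 0.141), which became adjusted p = 0.00568 and 0.0351 after correction for length and GC. Slc22a18 rests on 33 to 84 reads per control library and 44 to 118 in knockdown libraries. Slc22a18 minus Cdkn1c was −6.01 to −5.33 in control libraries, −4.54 to −3.47 in the Dppa2 group, and −5.21 to −4.76 in the Dppa4 group (log2).

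Phlda2, the most highly expressed member of the Kcnq1 domain per kilobase and the next gene after Slc22a18, was at 5.80, 6.20 and 6.29 in control libraries, 6.23, 5.92 and 6.21 with Dppa2 siRNA, and 6.56, 6.40 and 6.09 with Dppa4 siRNA. Its groups overlapped in both comparisons. The differences were 0.03 (−0.35 to 0.40; limma adjusted p = 0.984) and 0.25 (−0.12 to 0.63; adjusted p = 0.50), and the first turns negative after length and GC correction. Of the remaining 3 genes, Ascl2, Tspan32 and Cd81, none passed, with differences between −0.31 and 0.48. Ascl2 is a trophoblast transcription factor, and Tspan32 and Cd81 are tetraspanins.

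Igf2r (chr17:12682406-12769664) encodes the maternally expressed receptor that clears IGF2 from the cell surface. It was at 5.98, 5.66 and 5.68 in control libraries, 5.57, 5.45 and 5.41 with Dppa2 siRNA, and 5.03, 5.07 and 5.34 with Dppa4 siRNA. Every knockdown library lay below control, with the Dppa4 libraries lowest. The difference passed with Dppa4 siRNA (−0.62, −0.91 to −0.34; limma adjusted p = 0.0308; 65.2% ± 7.84 of control, SD, n = 3) and not with Dppa2 siRNA (−0.30, −0.58 to −0.01; adjusted p = 0.288). Igf2r is a long transcript (8887 bases) and was highest in control A, where long transcripts stood high. Without control A the Dppa4 difference was −0.52 (adjusted p = 0.0743), and with all libraries after length and GC correction it was −0.54 (adjusted p = 0.0226).

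Grb10 (chr11:11930508-12038683), an adaptor that dampens insulin and growth factor signalling from the maternal copy outside neurons, was lower in both knockdowns. Control libraries were at 6.09, 6.06 and 5.84, Dppa2 libraries at 5.26, 5.73 and 5.42, and Dppa4 libraries at 5.21, 5.23 and 5.39. No knockdown library reached the control range. The change passed with Dppa4 siRNA (−0.72, −1.03 to −0.41; limma adjusted p = 0.0227; 60.7% ± 4.23 of control, SD, n = 3). With Dppa2 siRNA the difference was −0.53 (−0.83 to −0.22; adjusted p = 0.0815), and after length and GC correction it was −0.47 (adjusted p = 0.0122).

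The Snrpn domain, which corresponds to the human Prader-Willi region, held 4 paternally expressed members that did not move together. Ndn (chr7:62348277-62349928) encodes necdin, a growth-suppressing MAGE protein of neurons. It was at 3.35, 3.16 and 3.82 in control libraries, 3.04, 2.69 and 2.94 with Dppa2 siRNA, and 2.65, 2.67 and 2.58 with Dppa4 siRNA. All knockdown libraries were below control. The Dppa4 difference was −0.81 (−1.21 to −0.41; limma adjusted p = 0.0419; 57.0% ± 1.92 of control, SD, n = 3), and after length and GC correction its adjusted p was 0.0737. The Dppa2 difference was −0.56 (−0.95 to −0.16; adjusted p = 0.152).

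Magel2, another MAGE gene close by, was at 2.68, 2.18 and 2.33 in control libraries, 1.63, 1.98 and 1.90 with Dppa2 siRNA, and 2.04, 2.08 and 2.38 with Dppa4 siRNA. The Dppa2 libraries lay below control and the Dppa4 libraries overlapped it. Neither difference passed, at −0.56 (−0.96 to −0.17; limma adjusted p = 0.144) and −0.23 (−0.63 to 0.16; adjusted p = 0.570). Snrpn, the spliceosomal protein gene whose reads are shared with Snurf on the same strand, was at 7.34, 7.58 and 7.55 in control libraries, 7.66, 7.45 and 7.68 with Dppa2 siRNA, and 7.78, 7.64 and 7.54 with Dppa4 siRNA. Its groups overlapped, with differences of 0.11 (−0.14 to 0.36; adjusted p = 0.778) and 0.16 (−0.08 to 0.41; adjusted p = 0.504). Snrpn also has close copies, since 5.17% of its 50-base stretches occur elsewhere in the transcriptome. Mkrn3, a ubiquitin ligase gene, differed by 0.29 (adjusted p = 0.420) and −0.19 (adjusted p = 0.592).

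**Figure D4:**
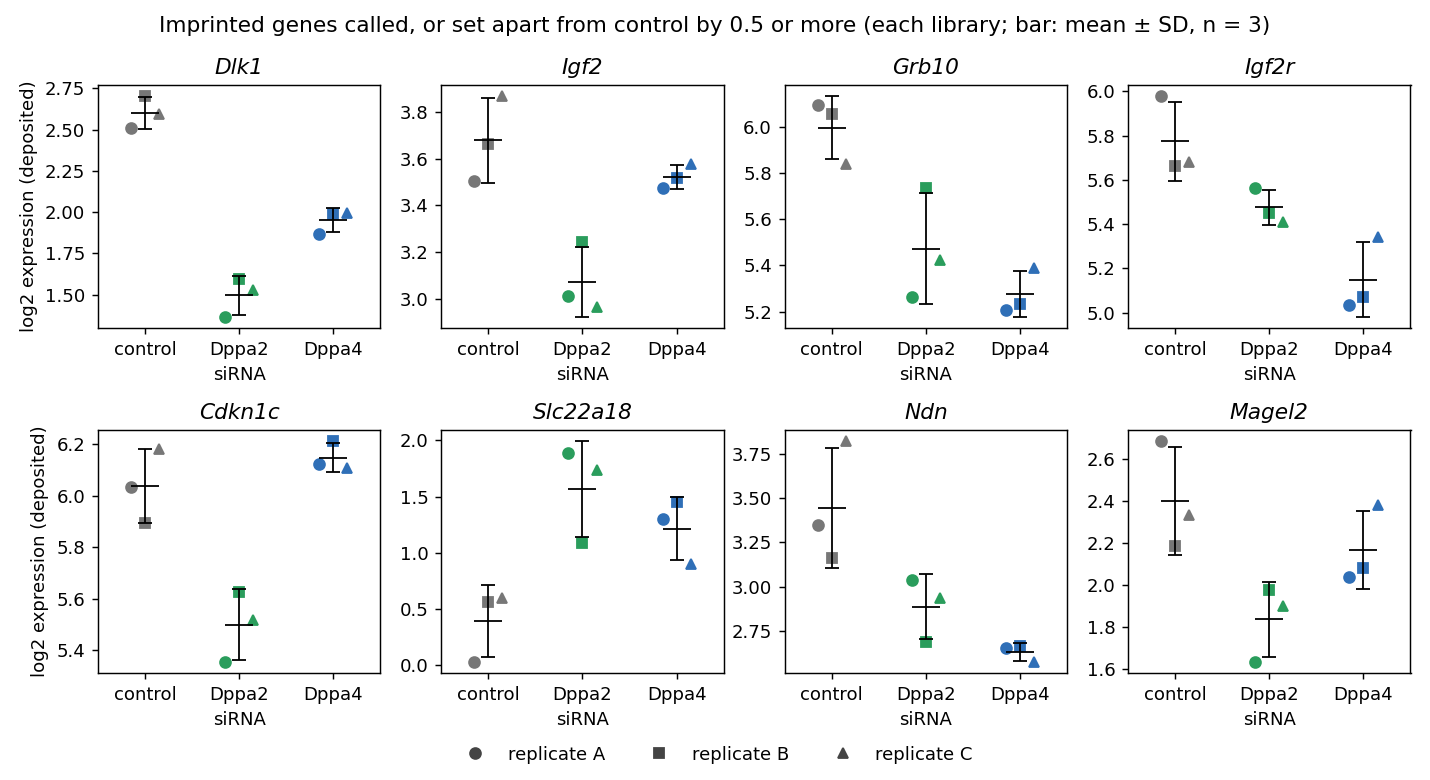
Log2 expression (y axis, as deposited) in each library for the 7 imprinted genes that passed the test in a knockdown and for Magel2, with library A as circles, B as squares and C as triangles, and bars for the mean ± SD (n = 3). Dlk1 control libraries at 2.51 to 2.70 are clear of the Dppa2 libraries at 1.37 to 1.59, while the Cdkn1c Dppa4 libraries sit with control.

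The Peg3 and Peg10 domains gave no call. Peg3, a paternally expressed zinc finger gene, was at 5.75, 5.0 and 4.77 in control libraries, 4.37, 5.28 and 4.51 with Dppa2 siRNA, and 4.38, 4.70 and 4.94 with Dppa4 siRNA. Its values ran with the long-transcript shift, being highest in control A and, among knockdown libraries, in Dppa2 B. The differences were −0.45 (−1.14 to 0.24; limma adjusted p = 0.587) and −0.50 (−1.19 to 0.19; adjusted p = 0.460). Usp29 and Zim1 were too low to place, with intervals from −2.42 to 0.41 and from −2.91 to 1.95 for Dppa2 siRNA.

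Peg10, a retrotransposon-derived gene needed for the placenta, had the highest level of any member before division by length. Its control libraries were at 8.57, 8.11 and 7.66, the Dppa2 libraries at 7.92, 8.71 and 8.08, and the Dppa4 libraries at 8.12, 8.41 and 8.52. The groups overlapped fully, with differences of 0.12 (−0.46 to 0.71; limma adjusted p = 0.936) and 0.24 (−0.35 to 0.82; adjusted p = 0.733). Sgce, read from the opposite strand next to it, differed by 0.48 (adjusted p = 0.263) and 0.40 (adjusted p = 0.325).

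None of the 10 tested members that were each alone in their domain passed, Grb10 aside. They were Zdbf2, Sfmbt2, Nnat, Gnas, Mest, Inpp5f, Gab1, Plagl1, Slc38a4 and Impact. Their differences ran from −0.31 to 0.46 with Dppa2 siRNA and from −0.57 to 0.48 with Dppa4 siRNA. Nnat, which encodes neuronatin, was the highest of these in both comparisons, at 0.46 (0.11 to 0.80; limma adjusted p = 0.177) and 0.48 (0.14 to 0.83; adjusted p = 0.135). Impact lay at −0.42 (−0.77 to −0.06; adjusted p = 0.20) with Dppa4 siRNA. Gnas and Inpp5f each sum imprinted and biallelic transcripts, so a change limited to an imprinted isoform would be diluted in their values.

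The knockdowns were also compared with each other. No member passed, and 3 of all 14601 genes did (0.0205%). At an unadjusted p under 0.05 there were 5 of 31 members, beside 6.76% of all tested genes, and no member passed under any alternative tried. Cdkn1c had the smallest adjusted p, 0.407, for a level 0.65 (0.40 to 0.89) higher with Dppa4 siRNA than with Dppa2 siRNA by limma. Dlk1 was 0.45 (0.17 to 0.74; adjusted p = 0.599) and Igf2 0.45 (0.16 to 0.74; adjusted p = 0.632) higher with Dppa4 siRNA, and Igf2r was lower (−0.33, −0.61 to −0.04; adjusted p = 0.691). A difference between the knockdowns was therefore not shown for any imprinted gene.

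Beyond the members, 42 further imprinted genes were listed and 32 were tested. Atp10a, a maternally expressed phospholipid flippase gene beside the Snrpn domain, was the single call in each comparison. It fell in both, by limma differences of −1.02 (−1.39 to −0.65; adjusted p = 0.00999) with Dppa2 siRNA and −0.77 (−1.14 to −0.40; adjusted p = 0.0373) with Dppa4 siRNA. The 1 of 32 called (3.13%) is near the 3.44% of all genes in each comparison.

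The machinery that keeps imprints was described by 21 genes, all tested. None passed in either comparison by limma, where 3.44% of all genes did in each. At an unadjusted p under 0.05 there were 1 of the 21 with Dppa2 siRNA and 6 with Dppa4 siRNA, beside 15.7% and 18% of all tested genes. Differences over the 21 ran from −2.58 to 0.20 with Dppa2 siRNA and from −0.91 to 0.40 with Dppa4 siRNA. Without overlap, 1 lay below control and 0 above with Dppa2 siRNA (8.2% and 9.57% of all tested genes). With Dppa4 siRNA 4 lay below (10.2%) and 3 above (13.7%). Zfp57, the zinc finger protein that binds methylated control regions, differed by 0.13 (−0.26 to 0.52; adjusted p = 0.864) and 0.34 (−0.05 to 0.73; adjusted p = 0.353). Trim28, its corepressor, differed by −0.09 (−0.28 to 0.10; adjusted p = 0.761) and 0.13 (−0.06 to 0.32; adjusted p = 0.505). For the maintenance methyltransferase Dnmt1 the values were −0.05 (−0.52 to 0.42; adjusted p = 0.976) and 0.03 (−0.44 to 0.50; adjusted p = 0.974). Uhrf1, which recruits Dnmt1, gave −0.02 (−0.28 to 0.25; adjusted p = 0.985) and 0.09 (−0.17 to 0.36; adjusted p = 0.782). Dppa3, which protects methylation in the zygote, was at −0.19 (−0.99 to 0.60; adjusted p = 0.921) and −0.91 (−1.71 to −0.11; adjusted p = 0.214), and after length and GC correction the latter was −0.94 (adjusted p = 0.0493).

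Some markers of other cell states moved with the knockdowns. All 8 genes of the 2-cell-like state, a rare state of ESC cultures, fell in both comparisons. Their summed linear level was 72.2 to 97.2 in control libraries, 0.587 to 1.23 in the Dppa2 group, and 0.561 to 0.925 in the Dppa4 group. Of 9 primitive endoderm markers, Sox17 and Gata6 rose with Dppa4 siRNA and none passed with Dppa2 siRNA. Of all tested genes 3.44% passed in each comparison. With Dppa4 siRNA 8 of the 9 lay above 0, and 6 lay above control without overlap, where 13.7% of all tested genes did. An unadjusted limma p under 0.05 was found for 5, beside 18% of all tested genes, and the median difference was 1.08. With Dppa2 siRNA 7 lay above 0 and 2 lay above control without overlap (9.57% of all tested genes). There 3 had an unadjusted limma p under 0.05 (15.7% of all tested genes), and the median difference was 0.42. The summed level was 75.03 to 100.2 in control, 83.7 to 88.0 in the Dppa2 group, and 88.5 to 95.4 in the Dppa4 group. None of the 8 tested trophoblast markers (10 listed) or the 8 early mesoderm and ectoderm markers passed in either comparison. Of the latter with Dppa2 siRNA, 3 lay below control without overlap and 2 above (8.2% and 9.57% of all tested genes). Their differences ran from −0.84 to 1.51. With Dppa4 siRNA 3 lay below (10.2%) and 0 above (13.7%). An unadjusted limma p under 0.05 was found for 5 and 3, beside 15.7% and 18%. For trophoblast markers it was found for 0 and 1. Trophoblast sums were 59.3 to 82.2, 61.4 to 79.6 and 53.4 to 57.7, and Tpbpa was at 0 reads throughout. Early mesoderm and ectoderm sums were 56.4 to 71.4, 57.4 to 58.9 and 51.8 to 55.3. The part of these shifts in the imprinted genes' values was not tested.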

How the data were processed

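PolyA RNA-seq libraries of E14 ESCs were sequenced by the authors, trimmed with Trim Galore 0.4.5 and aligned to GRCm38 with HISAT2 2.0.5 (per the labels). The deposited values are log2 expression per gene, counted on the stated strand and matched between libraries by the authors in SeqMonk, and are not corrected for length. The authors called differences with DESeq2 and an intensity filter. Because the deposited values are log2 and not counts, limma 3.58.1 (R 4.3.3, intensity trend, all 9 libraries) was used here instead, on 14601 genes with log2 above −2 in at least 3 libraries, and adjusted p below 0.05 was the threshold. Whole reads were estimated from the ranks of the distinct low values, as whole numbers up to 300 reads and by extrapolation above. The limma step was tested on simulated data.

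The members and gene lists were chosen with earlier results of these data known. Every library's value is given for members past the threshold, for members whose knockdown libraries all lay beyond control by a mean difference of at least 0.5, and for the highest member of each domain. Other imprinted genes and imprint regulators are named if past the threshold, together with Zfp57, Trim28, Dnmt1, Uhrf1 and Dppa3. Begain, Dio3 and Rtl1 were added after their values were seen, and Tpbpa is named as a marker at 0 reads. Replicates are separate libraries, and nothing in the labels says that they were separate cultures, so p-values measure the spread between libraries. Gene lengths and overlaps came from GENCODE vM21 and promoters from RefSeq, where 27 of 32 members matched; Cdkn1c was without an entry. Depth gives few reads for Dlk1 and Slc22a18, and read counts cover counting error only. Python 3.11.15 was used for tables and figures.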

Additional observations from a re-analysis of the deposited data

Results flagged for a closer look

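Mkrn3 and Cdkn1c had values on opposite sides of control in the knockdowns: every library of one knockdown lay on one side of the control mean and every library of the other knockdown on the other. Mkrn3 was −0.48 with Dppa4 siRNA relative to Dppa2 siRNA (95% interval −0.81 to −0.14; limma adjusted p = 0.666). Cdkn1c was 0.65 higher with Dppa4 siRNA than with Dppa2 siRNA (0.40 to 0.89; limma adjusted p = 0.407). Neither direct difference passed the threshold over all genes. Against control, only Cdkn1c with Dppa2 siRNA passed.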

How the results depend on the processing

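Counts of imprinted genes past the threshold moved more than their directions. With Dppa2 siRNA, 4 passed in the fit reported, 1 (Dlk1) with only the libraries compared, and 8 without a filter on low values, where 9140 genes passed, of which 7462 had no reads in any library. With Dppa4 siRNA, 4 passed, 1 (Grb10) with only the libraries compared and 2 without a filter. Leaving out 1 library at a time gave 1 to 5 with Dppa2 siRNA, 0 to 4 with Dppa4 siRNA and 0 between the knockdowns. The count fell to 0 with Dppa4 siRNA without control A, Dppa4 A or Dppa4 B, and to 1 with Dppa2 siRNA without control C, Dppa2 A, Dppa2 C or any 1 of the Dppa4 libraries. Dlk1 with Dppa2 siRNA passed in each of these 9 fits, while the calls for Grb10, Dlk1, Igf2r and Ndn with Dppa4 siRNA held in 4, 3, 3 and 2 of 9, and those for Igf2, Cdkn1c and Slc22a18 with Dppa2 siRNA in 2, 2 and 1 of 9. The replicate block left 1 call with Dppa2 siRNA (Dlk1, adjusted p = 0.012) and 0 with Dppa4 siRNA. Of 9 same-letter correlations of deviations, 2 were over 0.1 (range −0.58 to 0.37). The largest of all, 0.69, was between control A and Dppa2 B, where long transcripts stood high in both. The length shift enters these correlations, so they cannot decide whether the letters mark shared batches, and the labels do not say. Over all genes tested, the block gave 238 and 212 calls instead of 502 and 502, only the libraries compared 230 and 294, and no filter 9140 and 470.

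The correction for length and GC, chosen after seeing the data, kept 4 calls in each comparison but exchanged Cdkn1c for Grb10 with Dppa2 siRNA and Ndn for Slc22a18 with Dppa4 siRNA. It turned the sign of 2 of 31 members with Dppa2 siRNA (Inpp5f, and Phlda2 to −0.13), of 5 with Dppa4 siRNA (Zdbf2, Sfmbt2, Zim1, Slc38a4, and Meg3 to 0.085) and of 3 between the knockdowns (Nnat, Sgce and Gab1), none of which passed before or after it. Among the 14 members given with every library's value, leaving out single libraries turned the sign of 4 with Dppa2 siRNA, none of which passed: Peg10 ran from −0.11 to 0.35, H19 from −0.11 to 0.084, Phlda2 from −0.12 to 0.13 and Meg3 from −0.023 to 0.12. The causes were not tested. Read depth limits members with few reads, such as Airn, Zim1, Usp29, Tspan32, Slc22a18, Plagl1, Dlk1 and Sgce.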

Other observations

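Other imprinted genes flanking Dlk1 on chromosome 12 are named here after their values were seen. Begain (chr12:109032187-109068217), which encodes a postsynaptic protein, was at 1.62, 1.96 and 1.89 in control libraries A, B and C, 1.05, 0.85 and 1.19 with Dppa2 siRNA, and 1.51, 0.94 and 1.19 with Dppa4 siRNA. All its knockdown libraries were below control, but limma gave adjusted p = 0.0600 and 0.126 for differences of −0.79 and −0.61. Dio3 (chr12:110279068-110281097), the thyroid hormone deiodinase gene at the far end of the domain, was at −1.01, −0.56 and 0.03 in control libraries, −1.94, −1.52 and −2.42 with Dppa2 siRNA, and −1.34, −1.03 and −2.07 with Dppa4 siRNA. Its differences of −1.45 and −0.97 had limma adjusted p = 0.107 and 0.255, from 17 to 40 reads per control library and 3 to 15 in knockdown libraries. Rtl1 had at most 3 reads in any library and was not tested.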
